A study of Mus musculus with 10 samples.

Results

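The 9 complement genes described here encode the chains of C1q (C1qa, C1qb, C1qc), the components C4b and C3, the anaphylatoxin receptors C3ar1 and C5ar1, and both chains of complement receptor 3 (Itgam, which encodes CD11b, and Itgb2, which encodes CD18). They were taken by symbol from the 46152 genes counted in microglia of adult C57BL/6J mice, and all 9 had counts in at least 1 library. Mice were gavaged for 8 days with GW2580, an inhibitor of the kinase of colony stimulating factor 1 receptor, at 80 mg/kg/d, or with the Tween 80 and hydroxymethyl propyl-cellulose vehicle at 0 mg/kg/d of GW2580. Each group had 5 mice, 2 male and 3 female, with 1 RNA-seq library per mouse. Brain cells were dissociated with enzyme, collected from a Percoll gradient and selected on beads for surface CD11b, so that the product of one of the genes described, Itgam, was also the handle by which the cells were obtained. The comparison asks whether blocking the receptor changed complement transcripts in these cells.

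Complement is a cascade of plasma and locally made proteins. C1q binds to targets such as immune complexes, dying cells and, in the developing brain, synapses, and the proteases that it carries cleave C4 and C2 so that C3 is cleaved and its fragments are deposited. Microglia are the main source of C1q in the brain and bear complement receptor 3, which binds deposited C3 fragments and mediates engulfment, whereas C3ar1 and C5ar1 sense the small fragments released when C3 and C5 are cleaved.

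None of the 8 members that could be tested met the call rule of the study, a fold change over 2 with an unadjusted p under 0.05, against a background of 10.7% of all 28419 genes tested (6.7% lower and 4.01% higher with GW2580). The 3 C1q genes were lower in the mean with GW2580, by 0.54 to 0.88 on the log2 scale, and the means of both chains of complement receptor 3 were higher, by 1.12 and 0.92, and for no gene did the groups separate. C3 was higher in the mean in male than in female mice (edgeR's quasi-likelihood test, unadjusted p = 0.00492, adjusted p = 0.908). Vehicle 2, a male library, fell inside the female range. C4b could not be read from these counts.

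The 3 C1q genes lie side by side on the minus strand of chromosome 4 (GRCm38) in the order C1qb, C1qc, C1qa, 3600 and 2979 bases apart, within 18719 bases in all. C3 lies on chromosome 17 at 57203967 to 57228136, C3ar1 on chromosome 6 at 122847140 to 122856157, C5ar1 on chromosome 7 at 16246743 to 16259540, Itgam on chromosome 7 at 128062640 to 128118491, and Itgb2 on chromosome 10 at 77530329 to 77565708. Counts were taken over all exons of a gene. Sequence upstream of the start site was held for 6 of the 9 genes in the RefSeq promoter table (GRCm38.p6), and 4 are shown, those in which a searched motif was found. Of these, C1qb and C1qc had the closest profiles over libraries of any pair of members, and Itgam and C3 had those farthest from that pair. Capitals mark GAGGAA on either strand (TTCCTC on the other), the core bound by the myeloid factor PU.1, or, in C3 alone, TTGCNNAA on either strand, a form of the site bound by C/EBP factors, and no marked stretch overlapped another.
C1qb, chr4:136886201-136886450, minus strand: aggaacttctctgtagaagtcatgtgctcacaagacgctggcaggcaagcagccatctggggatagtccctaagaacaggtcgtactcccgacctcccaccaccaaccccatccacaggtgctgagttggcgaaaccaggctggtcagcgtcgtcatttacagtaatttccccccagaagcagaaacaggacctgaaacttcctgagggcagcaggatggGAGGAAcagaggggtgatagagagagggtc
C1qc, chr4:136892937-136893164, minus strand: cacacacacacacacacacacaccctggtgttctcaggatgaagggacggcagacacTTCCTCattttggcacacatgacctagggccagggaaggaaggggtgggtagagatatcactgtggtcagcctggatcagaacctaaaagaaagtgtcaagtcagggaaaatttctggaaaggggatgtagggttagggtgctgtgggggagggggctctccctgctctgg
Itgam, chr7:128062390-128062639, plus strand: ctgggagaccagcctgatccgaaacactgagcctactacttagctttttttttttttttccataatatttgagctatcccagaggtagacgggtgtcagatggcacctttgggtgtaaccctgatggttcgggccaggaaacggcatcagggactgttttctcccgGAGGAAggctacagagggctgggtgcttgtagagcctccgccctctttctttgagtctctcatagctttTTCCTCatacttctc
C3, chr17:57228137-57228386, minus strand: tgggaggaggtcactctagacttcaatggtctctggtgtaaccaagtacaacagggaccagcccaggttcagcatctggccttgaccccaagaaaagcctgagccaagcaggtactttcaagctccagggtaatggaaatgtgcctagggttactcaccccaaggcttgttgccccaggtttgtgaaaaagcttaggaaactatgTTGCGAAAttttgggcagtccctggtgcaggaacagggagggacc
The GAGGAA core began 30 bases before the start of C1qb and stood reversed 171 bases before the annotated start of C1qc, and Itgam held it at 84 bases and reversed at 15 bases before its start. C3ar1 and C5ar1, also searched, held neither motif. Of all 32851 upstream stretches of 250 bases in the table, 23.3% held this core, and 9.56% held TTGCNNAA. Only 48 bases were searched for C5ar1 and 228 for C1qc, so these shares are not matched to them in length. A match of letters describes the sequence and is not a measured binding site.

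Library sizes ranged from 12550418 to 26079343 fragments assigned to genes. Microglial transcripts were abundant in every library: 13 of the 15 microglial marker genes passed the filter of more than 1 CPM (counts scaled to library size) in at least 3 libraries, and their summed level was 19909.5 to 40378 CPM with vehicle and 25978 to 79792 CPM with GW2580, Sparc being among the highest. The markers Aif1 and Trem2 had 0 and 2 counts over all libraries. A few libraries stood apart. In vehicle 5 the choroid plexus and ependymal markers summed to 27144 CPM, against 164 to 3531 CPM in the other libraries, and the meningeal fibroblast markers to 1008 CPM, against 32.9 to 96.7 CPM. Vehicle 2 held 17969 CPM of oligodendrocyte markers and vehicle 1 held 26293 CPM of monocyte and granulocyte markers, while GW2580 3 had the highest microglial sum. In bulk RNA, fewer cells of a type and less of its RNA per cell cannot be told apart. The 10 libraries are of different mice, so the p-values measure the spread between mice.

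The levels of the members spanned more than 3 orders per length of exon. As fragments per kilobase of exon scaled to library size (RPKM), C1qb reached 12650 ± 6086 with vehicle (SD, n = 5), C1qc 11340 ± 5593 and C1qa 4413 ± 2116. C1qb ranked between place 3 and place 11 among all tested genes in the 10 libraries, C1qc between 3 and 12, and C1qa between 7 and 43. Together the C1q genes took 2.96 ± 1.47% of the assigned fragments of vehicle libraries (SD, n = 5), from 0.478 to 4.22%, and 1.80 ± 0.755% of those of GW2580 libraries (SD, n = 5), from 1.00 to 2.59%. C1qb lay above C1qc in 5 of 5 vehicle and 4 of 5 GW2580 libraries, and C1qc lay above C1qa in all 10. The receptors were far lower and close to one another, with 86.5 ± 27.2 RPKM for C5ar1, 75.6 ± 17.4 for Itgb2, 60.0 ± 11.1 for C3ar1 and 57.5 ± 36.2 for Itgam with vehicle. That order held for each neighbouring pair in 4 of 5 vehicle libraries. With GW2580 it changed, Itgb2 (143 ± 82.8 RPKM) and Itgam (125 ± 79.1 RPKM) then lying above C5ar1 (109 ± 56.4 RPKM) in the mean. C5ar1 was above Itgb2, and C3ar1 above Itgam, in 2 of 5 of those libraries, so the genes of each of these pairs were not separated. Itgb2 was above C3ar1 in 4 of 5 vehicle and 5 of 5 GW2580 libraries. C3 was the lowest of the tested members, with 2.52 ± 1.59 RPKM with vehicle, and lay below Itgam in all 10 libraries.

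C1qa, the A chain, had 4932, 4677, 6851, 6387 and 1031 CPM in vehicle 1 to 5 and 1664, 4617, 4868, 1125 and 4187 CPM in GW2580 1 to 5. C1qb, the B chain, had 14546, 16723, 17388, 18895 and 2277 CPM with vehicle and 3834, 10877, 10579, 2624 and 10030 CPM with GW2580. C1qc, the C chain, had 11715, 15876, 15936, 18087 and 2289 CPM with vehicle and 3486, 11460, 10259, 2536 and 8849 CPM with GW2580. The same 3 libraries, vehicle 5, GW2580 1 and GW2580 4, were the low ones for all 3 chains, and 4 of the 5 vehicle libraries lay above every GW2580 library for C1qb and C1qc. Vehicle 5 lay below every GW2580 library for each chain, so that no chain separated the groups. The log2 fold change with GW2580 was -0.88 (SE 0.63) for C1qb, -0.80 (SE 0.63) for C1qc and -0.54 (SE 0.58) for C1qa, with unadjusted p = 0.185, 0.221 and 0.368 in edgeR's quasi-likelihood test. The Benjamini-Hochberg adjusted p over all tested genes was 0.517, 0.553 and 0.674. The two-sided exact permutation test over all choices of 5 libraries gave p = 0.254, 0.238 and 0.421, where the smallest p it can give is 0.00794.

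**Figure D1:**
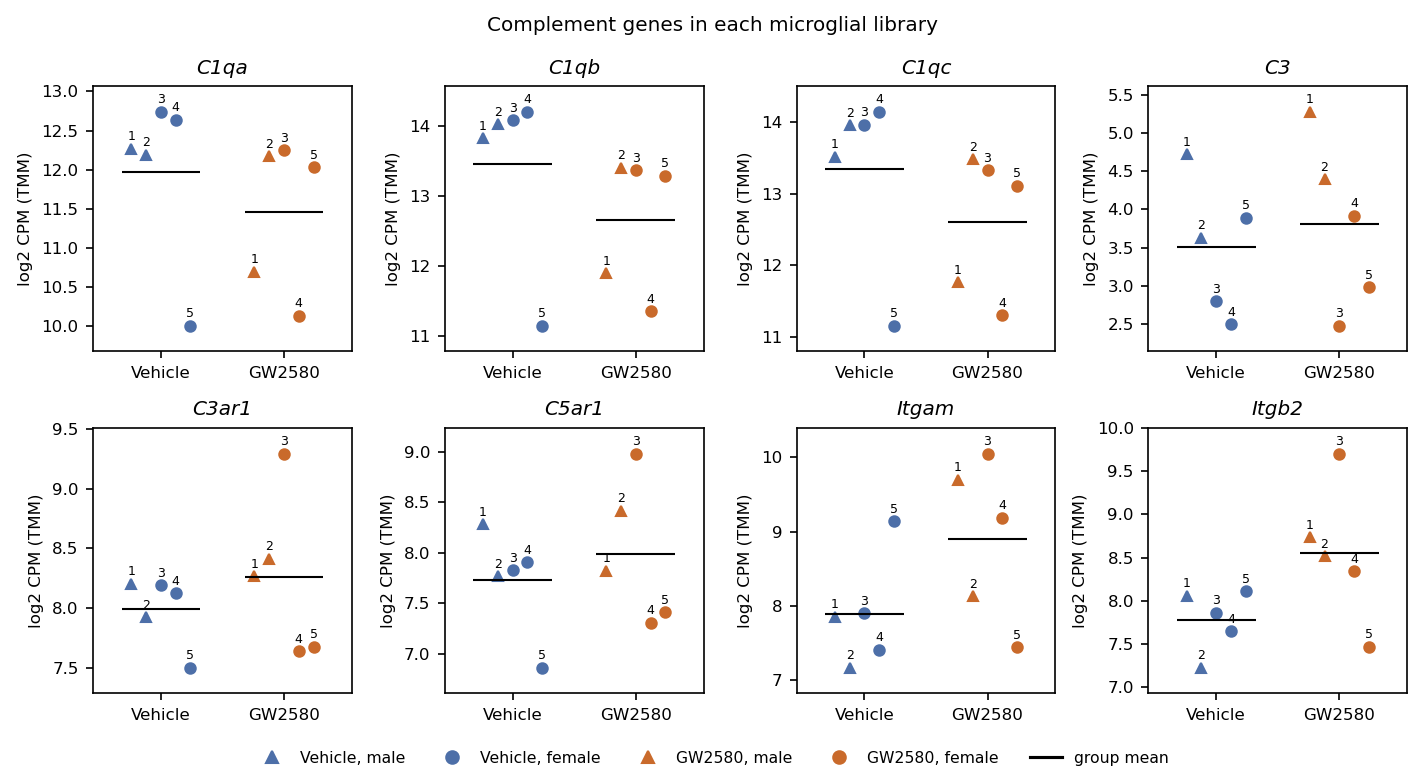
Expression of the 8 tested complement genes in each library, as log2 CPM on the y axis (each panel with its own range), for vehicle (blue) and GW2580 (orange) mice, with triangles for males, circles for females, replicate numbers above the points and a bar at the group mean. The C1q panels share the low libraries vehicle 5, GW2580 1 and GW2580 4, and 4 of 5 GW2580 points lie above all vehicle points for Itgb2.

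The C1q transcripts are short, with 1082 (C1qa), 1104 (C1qb) and 1127 (C1qc) bases of exon. Over all tested genes, the median log2 fold change with GW2580 was 0.08 for 1 to 1000 bases and -0.16 for 1001 to 1500 bases. Only among more abundant genes were the short ones clearly lower as a class. Among genes above 20 CPM, the 522 genes with 1001 to 1500 bases of exon had a median log2 fold change of -0.76 and 1.15% of them were positive, whereas the 1386 genes with 3501 to 5000 bases had a median of 0.12. C1qb lay 0.12 below the median of its length class and C1qc 0.04 below it, and C1qa lay 0.23 above it, so that 37.9%, 45.4% and 71.6% of the class was lower than each. When the trend with exon length was removed from each library, a step chosen after seeing the data, the log2 fold changes were 0.00 for C1qb, 0.05 for C1qc and 0.35 for C1qa. None had an unadjusted p under 0.05 in edgeR. The step subtracts the trend of genes of like length, the C1q genes included, so it restates the class comparison and is no separate test. Over all genes it gave 4016 calls higher and 708 lower with GW2580. In GW2580 1 and GW2580 4 the other 519 genes of this class were low as well, with a median of -0.97 and -1.48 on the log2 scale against each gene's mean over libraries, where the C1q genes averaged -1.13 and -1.65. Vehicle 5 differed, with -0.03 for the class and -1.81 for the C1q genes. Its summed microglial markers were the lowest of all libraries, at 19909.5 CPM, and its choroid plexus markers Ttr and Clic6 had 24921 and 1476 CPM. With vehicle 5 left out, the C1qb fold change was -1.15 on the log2 scale (unadjusted p = 0.0779) and the C1qa fold change -0.79 (unadjusted p = 0.169) in the same edgeR test. GW2580 1 and GW2580 4 also had the highest percentages of records on no annotated exon, 56.1 and 60.1%, against 38.4 to 51.5% in the other libraries, vehicle 5 having 40.2%. With that percentage as a covariate the log2 fold changes were -0.69 for C1qb, -0.61 for C1qc and -0.37 for C1qa, none with an unadjusted p under 0.05 in edgeR. The part of vehicle 5's other cells in the C1q values was not tested.

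**Figure D2:**
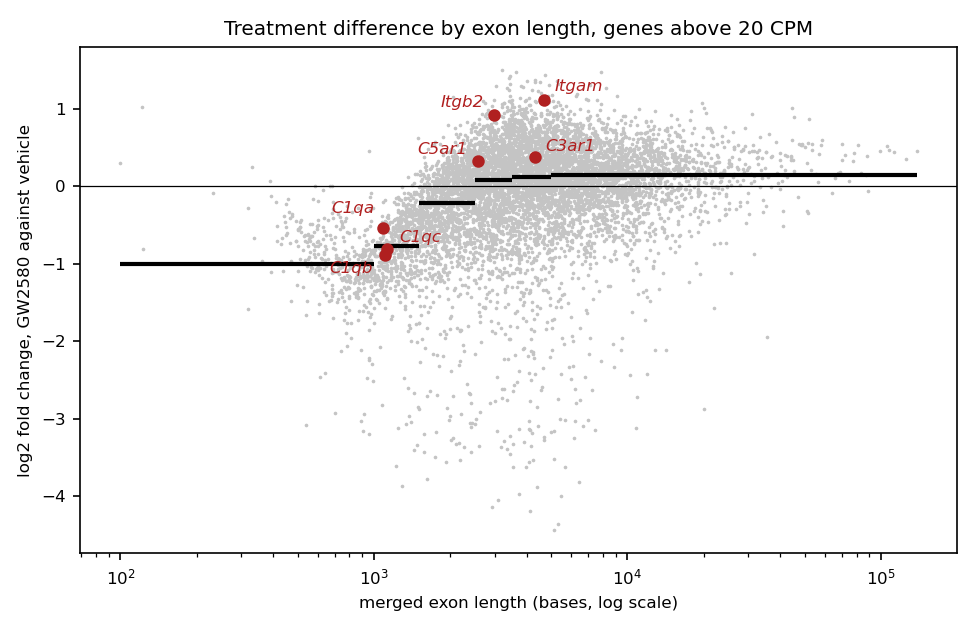
Log2 fold change of GW2580 against vehicle (y axis) by merged exon length in bases (x axis, log scale) for the genes above 20 CPM (grey points), with black bars at the median of each length class and 7 complement genes in red. The C1q genes lie at the level of their length class, whose median is -0.76, and Itgam and Itgb2 lie above most genes of theirs.

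Within a library the C1q chains kept close proportions. The profiles of C1qb and C1qc over the 10 libraries differed by a root mean square of 0.10 on the log2 scale, the smallest distance of any pair of members, and those of C1qa and C1qb by 0.22. The ratio of C1qa to C1qb per kilobase averaged 0.363 with vehicle and 0.442 with GW2580, a log2 difference of 0.28 (exact permutation p = 0.0476, adjusted p over 6 ratios 0.262). Its log2 values were -1.53, -1.81, -1.31, -1.54 and -1.11 in vehicle 1 to 5 and lay between -1.23 and -1.09 in the GW2580 libraries. The GW2580 libraries thus sat closely together, above 4 of the 5 vehicle libraries, and vehicle 5 fell among them. The C1qa to C1qc ratio differed by 0.24 (exact permutation p = 0.0873, adjusted p over 6 ratios 0.262) and C1qb to C1qc by -0.05 (exact permutation p = 0.524, adjusted p over 6 ratios 0.629). Leaving out vehicle 5 took the C1qa to C1qb difference to 0.37 (exact permutation p = 0.00794, the smallest it can give there), and leaving out vehicle 2 took it to 0.19 (exact permutation p = 0.0873). Without vehicle 1, vehicle 4 or any 1 GW2580 library the exact permutation p was 0.0635 to 0.0952. Pairing by replicate number gave an exact permutation p of 0.125, where the smallest p that pairing can give is 0.0625.

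**Figure D3:**
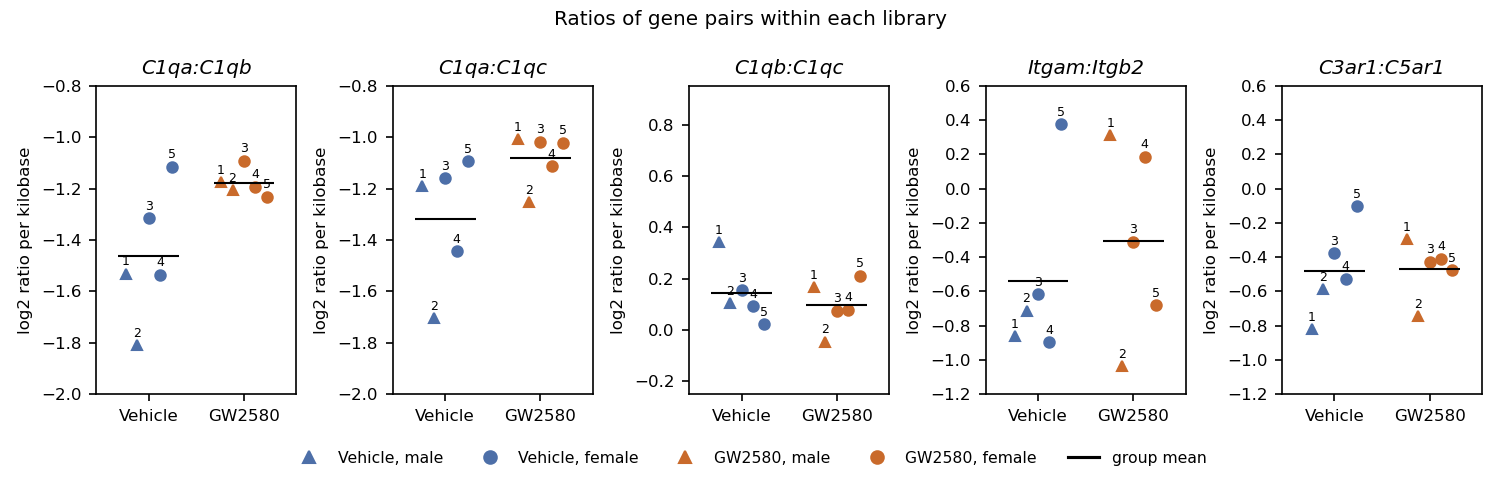
Log2 ratio of counts per kilobase of exon between the genes of a pair within each library (y axis), by group, with symbols as in the plot of expression by library and a bar at the group mean. For C1qa:C1qb the GW2580 libraries lie between -1.23 and -1.09, and vehicle 2 is the lowest vehicle library at -1.81.

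C4b, which encodes the C4 component cleaved by the C1 proteases, had 17, 4, 1, 5 and 20 counts in vehicle 1 to 5 and 9, 1, 18, 9 and 0 in GW2580 1 to 5, or 84 in all. It passed 1 CPM of assigned fragments in 1 library and was not tested. In the annotation used for counting, C4b stands on 4 sequences, chromosome 17 and 3 extra scaffolds, and its 21799 bases of exon are the sum over these copies, so no level per length is given. Fragments that aligned to more than 1 place were not counted. Of the 1850 genes annotated on both a chromosome and an extra scaffold, 37.8% had 0 counts in every library and 27.8% passed the filter, against 2.64% and 63.4% of the 43921 genes on a chromosome alone. The neighbours C4a and C2 (0 counts each) and Cfb (19 counts), which encode the paralogue of C4b, the other substrate of the C1 proteases and factor B, stand on the same number of sequences, as does Aif1. C4b also shares 8.26% of its transcript windows of 150 bases with C4a in the GENCODE transcripts. Low C4b counts therefore do not show a low level of C4b RNA.

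C3, the central component, was the least abundant tested member, with 82 to 755 counts per library. It had 26.3, 12.2, 6.85, 5.51 and 14.7 CPM in vehicle 1 to 5 and 38.8, 20.9, 5.45, 15.0 and 7.79 CPM in GW2580 1 to 5. The groups overlapped nearly throughout, and the log2 fold change with GW2580 was 0.42 (SE 0.54, unadjusted p = 0.445, adjusted p = 0.728 in edgeR's quasi-likelihood test). Without GW2580 1, the highest library, the fold change was -0.09.

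The larger split of C3 was by sex. The 4 male libraries, vehicle 1 and 2 and GW2580 1 and 2, held 12.2 to 38.8 CPM with a mean of 24.6 ± 11.1 (SD, n = 4), and the 6 female libraries held 5.45 to 15.0 CPM with a mean of 9.22 ± 4.46 (SD, n = 6). Of the male libraries, 3 lay above all female libraries, and vehicle 2 fell below 2 female libraries. With treatment in the model, C3 was 1.38 higher in males on the log2 scale (SE 0.41, unadjusted p = 0.00492, adjusted p = 0.908, edgeR's quasi-likelihood test), and the two-sided exact permutation test gave p = 0.0190. C3 was the 1 member of 8 past the call rule by sex, against 1.62% of all genes, while 2.02% had an unadjusted p under 0.05 and 0.0915% an adjusted p under 0.05. Leaving out any 1 library kept the difference between 1.11 and 1.65. Of the 41 other complement genes tested, only Fcnb and Cfp had an unadjusted p under 0.05 by sex in edgeR, and they are given for that reason. Others were lower in males in the mean, such as C1s1 at -1.18 and Lrp1 at -0.90. Fcnb encodes the lectin pathway initiator ficolin B made by neutrophil precursors. In the direction of C3, it was 2.85 higher in males (unadjusted p = 1.83e-05, adjusted p = 0.0347 by edgeR), with 40.8 to 128 CPM in the male and 5.00 to 15.8 CPM in the female libraries. Cfp, which encodes properdin, the stabiliser of the alternative pathway convertase, was 1.17 higher (unadjusted p = 0.0137, adjusted p = 1 by edgeR).

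Monocyte and granulocyte transcripts also differed by sex. All 10 genes of that marker list passed the filter and all 10 were higher in males, 7 with an unadjusted p under 0.05, and their median log2 difference was 2.12. Their summed level was 3198 to 26293 CPM in male and 477 to 5772 CPM in female libraries, none of the 10 was at 0 in any library, and Ngp and S100a9 were the most abundant. Adam8 and Fgr were among the genes whose profiles lay nearest to C3, at distances of 0.43 and 0.51 (root mean square, log2). Without vehicle 1 and GW2580 2, the libraries with the most of these transcripts, C3 was 1.36 higher in males (unadjusted p = 0.0315) and Fcnb 1.91 higher (unadjusted p = 0.00156), while Cfp had a difference of 0.51 (unadjusted p = 0.351), all by edgeR. The only male libraries then left were vehicle 2, with 12.2 CPM of C3 and inside the female range, and GW2580 1, on which that C3 difference largely rests. GW2580 1, which held the most C3 (38.8 CPM), had the lowest sum of these markers among the male libraries. Among the female libraries, C3 was highest in GW2580 4 and vehicle 5 (15.0 and 14.7 CPM), where the markers summed to 729 and 477 CPM. GW2580 5 had the highest female sum, 5772 CPM, and 7.79 CPM of C3. The part of these cells in the C3 difference was not tested. No member had an unadjusted p under 0.05 for the interaction of treatment with sex in edgeR, where 2.52% of all genes did and 0 passed the adjusted threshold.

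**Figure D4:**
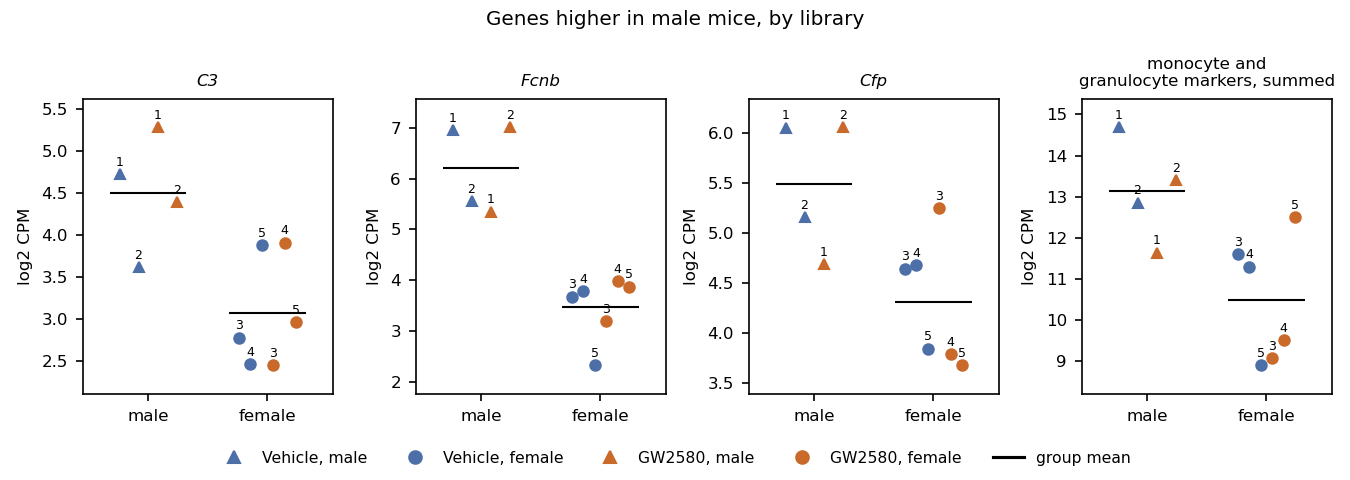
Log2 CPM (y axis) of C3, Fcnb, Cfp and the summed monocyte and granulocyte markers in male and female libraries, with blue for vehicle, orange for GW2580, replicate numbers above the points and a bar at the mean for each sex. Fcnb does not overlap between the sexes, with 40.8 CPM in the lowest male and 15.8 CPM in the highest female library.

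C3ar1, the receptor for C3a, had 295, 243, 292, 279 and 181 CPM in vehicle 1 to 5 and 308, 341, 628, 199 and 204 CPM in GW2580 1 to 5. C5ar1, the main receptor for C5a, had 311, 218, 227, 240 and 116 CPM with vehicle and 226, 341, 505, 158 and 170 CPM with GW2580. GW2580 3 was the highest and vehicle 5 the lowest library for both, and the groups overlapped. The log2 fold changes were 0.38 (SE 0.38, unadjusted p = 0.327) and 0.33 (SE 0.40, unadjusted p = 0.424) in edgeR's test, with adjusted p of 0.642 and 0.715. Without GW2580 3 they were 0.03 and 0.01. The pair moved together, with profiles 0.20 apart (root mean square, log2) and a ratio whose log2 value differed by 0.01 between the groups (exact permutation p = 0.944, adjusted over 6 ratios 0.944). C5ar2, the second receptor for C5a, averaged 23.7 ± 5.74 CPM in vehicle mice (SD, n = 5) and 45.5 ± 24.9 CPM in GW2580 mice (SD, n = 5), a log2 fold change of 0.94 (SE 0.37, unadjusted p = 0.0222, adjusted p = 0.283 in edgeR), under the fold threshold. Without GW2580 3 it was 0.56 (unadjusted p = 0.0782 in edgeR), and with library size alone it was 1.10 (unadjusted p = 0.00528), past the call rule.

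Itgam, the CD11b chain, had 230, 143, 239, 169 and 564 CPM in vehicle 1 to 5 and 832, 280, 1060, 582 and 173 CPM in GW2580 1 to 5. Of the GW2580 libraries, 3 lay above all vehicle libraries, GW2580 2 lay above all but vehicle 5, and GW2580 5 lay inside the vehicle range. The log2 fold change was 1.12 (SE 0.53, unadjusted p = 0.0539, adjusted p = 0.343 in edgeR's test), a fold of 2.18, and the exact permutation p was 0.103. Itgb2, the CD18 chain that pairs with CD11b and with other integrin alpha chains, had 266, 149, 232, 200 and 276 CPM with vehicle and 425, 365, 834, 325 and 177 CPM with GW2580. Here 4 of 5 GW2580 libraries lay above all vehicle libraries, and GW2580 5 was again inside their range. The log2 fold change was 0.92 (SE 0.41, unadjusted p = 0.0421, adjusted p = 0.325 in edgeR's test), a fold of 1.89, and the exact permutation p was 0.0714. Itgb2 was the 1 member of 8 with an unadjusted p under 0.05, against 14.7% of all genes, and complete separation of the groups, seen in 3.03% of all genes, was seen for no member.

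The call for this pair turned on single libraries. Without vehicle 5, in which Itgam was 564 CPM, Itgam had a log2 fold change of 1.58 (unadjusted p = 0.00728) and Itgb2 of 1.00 (unadjusted p = 0.0372), and both met the call rule in edgeR. Without GW2580 5 both met it as well, at 1.30 (unadjusted p = 0.0177) and 1.04 (unadjusted p = 0.0139). Without GW2580 2 Itgam met it (1.30, unadjusted p = 0.0361), and without GW2580 4 Itgb2 did (1.01, unadjusted p = 0.0328). Without GW2580 3 the values were 0.80 (unadjusted p = 0.153) and 0.52 (unadjusted p = 0.138) by edgeR. Scaled by library size alone, Itgam had 1.36 (unadjusted p = 0.0140) and Itgb2 1.05 (unadjusted p = 0.00490), a scaling under which the median log2 fold change of all tested genes moved from -0.03 to 0.23. Among genes of their own exon-length class above 20 CPM, 1.15% had a larger fold change than Itgam and 2.41% a larger one than Itgb2. Csf1r, which encodes the receptor that GW2580 inhibits, stood beside them at a log2 fold change of 1.28 (unadjusted p = 0.0394 in edgeR). The smallest adjusted p of any gene in that test was 0.280. From the same mice the paper reported only a trend of Csf1r toward higher expression, short of significance. Of the 13 microglial markers tested, 11 had positive fold changes and 2 were called, both higher. Of all 28419 genes tested, 10.7% were called, and 4.01% were called higher. In the exon-length classes of these markers, 30.97 to 63.65% of the genes above 20 CPM had positive fold changes. With the mean of these markers as a covariate, Itgam had a log2 fold change of 1.05 (SE 0.63, unadjusted p = 0.121) and Itgb2 one of 0.54 (SE 0.38, unadjusted p = 0.180) in edgeR.

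The chains of complement receptor 3 did not keep one ratio. Their log2 ratio per kilobase (Itgam over Itgb2) was -0.86, -0.71, -0.62, -0.90 and 0.38 in vehicle 1 to 5 and 0.31, -1.04, -0.31, 0.19 and -0.68 in GW2580 1 to 5. Vehicle 5, GW2580 1 and GW2580 4, the libraries low in C1q, were the ones with more Itgam than Itgb2 per kilobase. The groups differed by 0.24 (exact permutation p = 0.516, adjusted over 6 ratios 0.629), and the profiles of the chains were 0.51 apart (root mean square, log2), against 1.91 between Itgam and C1qb, the largest distance of any pair of members. The nearest genes to each member among 7580 genes above 20 CPM differed by member. They were Nckap1l, Sgpl1 and Arsb for Itgam (0.11 to 0.14) and Lpcat1, Fes and Socs3 for Itgb2 (0.11 to 0.15). C1qb and C1qc were each other's nearest gene, followed by Tnfaip8l2 and Gm12166 for C1qb and by Inka1 and Susd3 for C1qc, and C1qa had Cd68, Rnase4 and Alox5ap. I830077J02Rik, Cept1 and Ifngr1 were nearest to C3ar1, and Arhgap9 and Armc7 were among the nearest to C5ar1. These distances describe 10 libraries that share depth, length trend and cell makeup, and no test was made on them.

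Of 49 other complement genes, 41 were tested and 6 met the call rule (14.6%, beside 10.7% of all genes), 1 higher and 5 lower with GW2580. The genes called lower were C1s1, a protease of the C1 complex, and the regulators Serping1 (C1 inhibitor), Cd59a (which blocks the membrane attack complex), Clu (clusterin) and Cpn1 (a carboxypeptidase that inactivates anaphylatoxins), with log2 fold changes of -2.42, -2.27, -1.97, -3.31 and -1.16 and unadjusted p = 0.0113, 0.0126, 0.0168, 0.0127 and 0.0480 in edgeR. Each was highest in vehicle 5. Clu had 3587 CPM in vehicle 5, 639 CPM in vehicle 2 and 30.5 to 119 CPM in the other 8 libraries, and Cd59a had 134 CPM in vehicle 5 and 6.73 to 14.6 CPM elsewhere. Without vehicle 5 none of the 5 met the call rule (log2 fold changes of -0.23 to -1.10), and without vehicles 2 and 5 Clu was 1.22 higher with GW2580 (unadjusted p = 0.0107 in edgeR). Vehicle 5 also held the most choroid plexus, ependymal and fibroblast transcripts, as given above, whose part in these calls was not tested.

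By role, 1 of 4 tested classical pathway genes was called, 0 of 8 lectin pathway genes, 0 of 1 alternative pathway gene, 0 of 7 terminal genes, 0 of 6 other receptors and 5 of 15 regulators. Among the genes of highest level in each role that were not called, C1ra and C1s2, proteases of C1, had log2 fold changes of -0.17 and 0.63, and Masp1 and Fcnb of the lectin pathway 0.41 and 0.05. Cfp had -0.09, the terminal components Hc (which encodes C5) and C9 had 0.22 and 0.56, and Lrp1, a scavenger receptor that also binds C1q, had -0.08. The median log2 fold change was -0.06 over the 41 genes and 0.36 over the 8 members, beside -0.03 over all genes tested. No gene of the 28419 had an adjusted p under 0.05 in edgeR's test, the smallest being 0.280, while 4186 had an unadjusted p under 0.05 and DESeq2 gave 177 genes with an adjusted p under 0.05, no member among them.

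**Figure D5:**
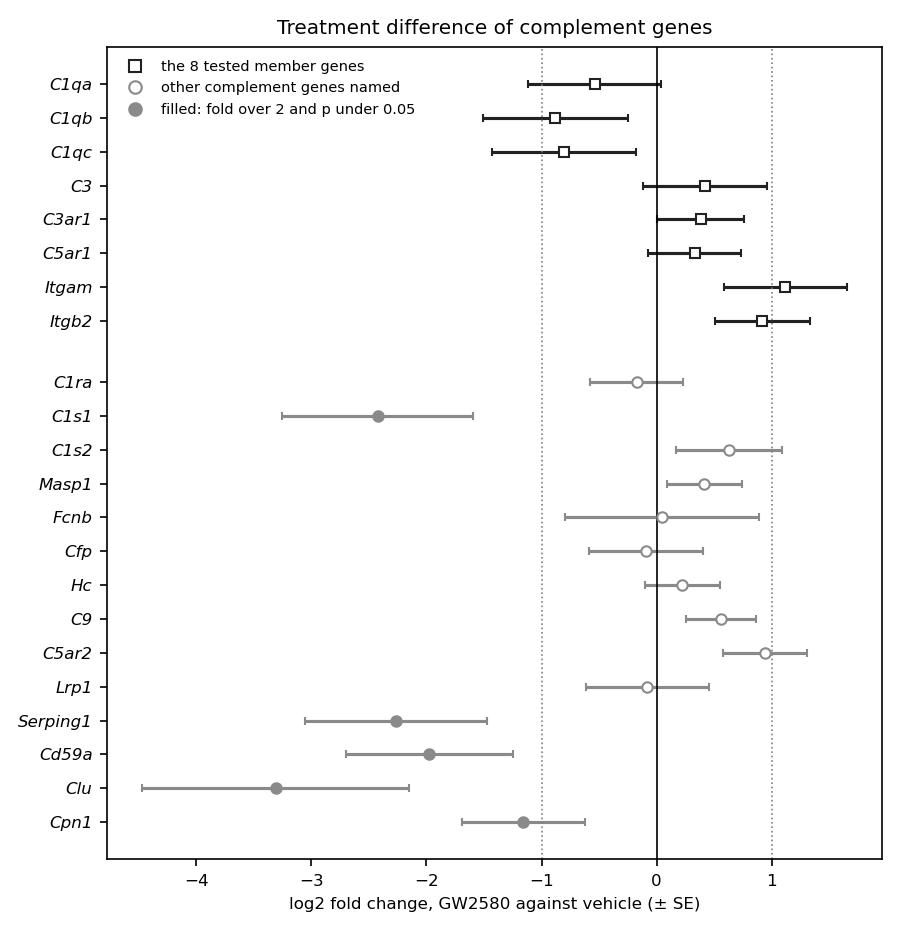
Log2 fold change of GW2580 against vehicle with its standard error (x axis) for the 8 tested member genes (squares) and for other complement genes of the highest level in each role or called (circles), one gene per row, with dotted lines at a 2-fold change and filled symbols for genes past the call rule. The 5 filled circles lie between -1.16 and -3.31, and no square is filled.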

How the data were processed

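RNA of CD11b-selected microglia was made into SMART-Seq libraries and sequenced as read pairs. The authors filtered the reads for quality, which removed none, mapped them to GRCm38 with STAR and summed, for each gene, the fragments with a single alignment that fell on its exons, without regard to strand. They deposited these counts without normalization. The file header names featureCounts 1.6.3 and a RefSeq annotation of GRCm38. The authors also deposited the number of counting records in each class of assignment (counts) and the merged exon length of each gene in bases. Records on no annotated exon were 38.4 to 60.1% of all records and those aligned to more than 1 place 15.1 to 26.1%, and neither entered library sizes or tests.

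Gene symbols and coordinates came from the RefSeq gene table (GRCm38.p6), which holds 46029 of the 46152 genes. The counts were analysed with edgeR 4.0.16 and limma 3.58.1 in R 4.3.3. The filter, more than 1 CPM in 3 or more libraries, left 28419 genes, which were scaled by TMM and tested by quasi-likelihood with a single term for treatment. The call rule followed the study (fold over 2, unadjusted p under 0.05), with Benjamini-Hochberg adjusted p-values over all tested genes beside it. Sex was tested with treatment in the model, and the interaction with both. The standard error is the log2 fold change divided by the square root of F. Log2 CPM carried a prior count of 2 and ratios within a library a count of 0.5. Exact permutation tests were two-sided. Counts are of reads without molecular identifiers, and the smallest library had 12550418 assigned fragments. The fit was tested on simulated data that held no exon-length trend and no outlying library, so that test does not cover these features.

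The length trend was a loess curve (span 0.5) of log2 CPM on log2 exon length in each library, from genes above 20 CPM, entered as offsets. Windows of 150 bases were compared with the GENCODE transcripts, where 69.6% of those of Itgam also stood in Gm49368, a gene absent from the counted annotation, and no other member but C4b shared any. Alternatives were other scalings, filters, tests (DESeq2 1.42.0, limma-voom), covariates and left-out libraries. The named genes are the 9 members, the 2 of highest level in each complement role plus any called, the 3 nearest profiles of each member and the 2 highest genes of a marker list set beside a result. Members and lists were chosen with earlier results of these data known. Upstream bases inside the gene as annotated (22 for C1qc, and all but 48 for C5ar1) were left out. Some genes that this rule names are not reported here.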

Additional observations from a re-analysis of the deposited data

Results flagged for a closer look

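In groups of 5 libraries, a library was singled out where its gap to the nearest other library exceeded 0.71 of the group's range (Dixon's test). Of 60 sets of values examined, 12 had such a library, 9 of them vehicle 5. Chance gives about 1 in 20 for independent, normally distributed values. These sets come from the same 10 libraries and most are CPM off the log scale, so that rate need not hold for them. Vehicle 5 was apart and low for C1qb (gap 0.738 of the range, 2277 CPM against 14546 to 18895 in the other vehicle libraries). It was apart and high for Itgam (0.773, 564 CPM against 143 to 239) and for the Itgam to Itgb2 ratio (0.781, a log2 ratio of 0.38 against -0.90 to -0.62).

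Among other complement genes, vehicle 5 was apart and high for C1s1 (0.872), Masp1 (0.746, 17.6 CPM against 7.01 to 9.69), Lrp1 (0.899, 630 CPM against 112 to 164), Serping1 (0.879), Cd59a (0.951) and Clu (0.829). With GW2580, library 5 was apart and high for C1s1 (0.904, 1.76 CPM against 0.389 to 0.521) and Cpn1 (0.825, 4.06 CPM against 1.49 to 1.94), and library 2 for Fcnb (0.735, 128 CPM against 9.17 to 40.8). No member or other named complement gene had an unadjusted p under 0.05 for the interaction of treatment with sex in edgeR.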

How the results depend on the processing

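The main limits are 5 mice a group and a trend of the treatment difference with exon length among genes above 20 CPM. Others are libraries that differ in other cells and genes annotated on several sequences. The count of all genes called was 3046 and was 4802 with no filter on low counts, 1953 with microglial markers as a covariate, 1181 with the percentage of records on no annotated exon as a covariate and 4724 with the length trend removed (4016 of them higher), and at an adjusted p under 0.05 it was 0. Higher against lower calls were 1141 and 1905, and 2123 and 875 with library size alone. The 0 members called became 2 with library size alone, with microglial markers and with the percentage on no annotated exon as covariates, and 1 with upper quartile factors, DESeq2, the likelihood ratio test, glial and neuronal markers as a covariate, without vehicles 2 and 5, with the length trend removed, and at an unadjusted p under 0.05 at any fold. The 6 other complement genes called became 1 with limma-voom or the microglial covariate, 2 with the replicate block, glial covariate or no-exon covariate, and 3 without vehicles 2 and 5 or with the length trend removed.

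Itgam passed the call rule at 1.36 with library size alone, 1.27 with upper quartile factors, 1.08 with DESeq2, 1.12 with the likelihood ratio test, 1.29 with the glial covariate, 1.33 with the no-exon covariate, 1.44 without vehicles 2 and 5 and 1.00 with the length trend removed, and Itgb2 at 1.05 with library size alone and 1.14 with the no-exon covariate. With the microglial covariate they were 1.05 and 0.54, neither passing. With the microglial covariate C1qb passed at -1.16 and C1qc at -1.11, and C3ar1 and C5ar1 turned to -0.061 and -0.13. C3 turned to -0.011 with the no-exon covariate. With the length trend removed C1qa, C1qb and C1qc turned to 0.35, 0.0010 and 0.045. The cause of these changes was not tested, beyond the terms each alternative adds. Among other genes, C1ra turned to 0.083 with the glial covariate, 0.32 with the no-exon covariate and 0.32 without vehicles 2 and 5, and Fcnb to -0.080 with the glial covariate, -0.12 with the microglial covariate and -0.28 without vehicles 2 and 5. Cfp turned to 0.011 with library size alone, 0.24 with the no-exon covariate and 0.34 with the length trend removed. Lrp1 turned to 0.12 with library size alone, 0.13 with upper quartile factors, 0.093 with limma-voom, 0.15 with the replicate block, 0.30 with the glial covariate, 0.35 with the no-exon covariate and 0.58 without vehicles 2 and 5. Serping1 turned to 0.11 without vehicles 2 and 5, and Clu to 0.024 with the glial covariate and 1.22 without those vehicles. DESeq2 gave no p for Cd59a.

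With 1 library left out in turn, the counts ranged from 1684 to 4848 for all genes, 0 to 2 for members, 2 to 11 for other complement genes and 328 to 810 for sex. The log2 fold changes ranged from -0.79 to -0.31 for C1qa, -1.15 to -0.66 for C1qb, -1.07 to -0.58 for C1qc, -0.087 to 0.83 for C3, 0.03 to 0.53 for C3ar1, 0.01 to 0.49 for C5ar1, 0.80 to 1.58 for Itgam and 0.52 to 1.04 for Itgb2. For other genes they were -0.48 to 0.18 for C1ra, -1.01 to 1.08 for Fcnb, -0.56 to 0.31 for Cfp and -0.50 to 0.69 for Lrp1. The ratio differences ranged from 0.19 to 0.37 for C1qa:C1qb, 0.14 to 0.29 for C1qa:C1qc, -0.077 to 0.0032 for C1qb:C1qc, 0.082 to 0.47 for Itgam:Itgb2, -0.072 to 0.11 for C3ar1:C5ar1 and -2.09 to -0.73 for C4b:C3, a ratio that rests on 0 to 20 C4b counts a library and is not read here (-1.22, or -0.75 with a prior count of 5). The 460 genes called by sex became 237 without vehicle 1 and GW2580 2, chosen after seeing the data like the length step, and the 717 genes with an interaction became 410 with library size alone.

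Replicate numbers are shared labels that also carry sex, since numbers 1 and 2 were male and 3 to 5 female in both groups. The correlation of same-numbered libraries was 0.08, 0.135, -0.055, -0.069 and -0.392, and none of the 5 correlated best with its own number. The replicate block took the call of all genes to 2554 and gave the C1qa:C1qb difference of 0.28 an exact permutation p of 0.125, where 0.0625 is the smallest it can give. It changed no member's call, and the unadjusted p of Itgb2 was 0.122 with it in edgeR.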
